A study of Mus musculus with 8 samples.

Results

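Claudins are a family of tight junction proteins, and the 10 members described here, Cldn1, Cldn2, Cldn3, Cldn4, Cldn6, Cldn7, Cldn8, Cldn10, Cldn16 and Cldn19, are those made in the epithelium of the nephron and collecting duct or in its fetal forerunners. They were chosen by gene symbol from 35 annotated claudins among 49315 genes listed per library. The rule holds no measured value, but the choice was made with earlier results of these data known. All 10 members passed the filter on low counts that left 18485 genes for testing. The level of each was measured by bulk messenger RNA sequencing of frozen mouse kidney in 4 control libraries and 4 libraries from conditional knockouts of Kdm1a, the gene of the histone demethylase LSD1. The labels call one genotype wild type or control and the other conditional knockout. The recombinase that deletes Kdm1a, the cells in which it acts, the alleles that the controls carry, and the strain, age and sex of the animals are not given in the sources used here. The titles number the kidneys from 1 to 4 in each group, and nothing says that they came from separate animals, so the p-values below measure only the spread between these samples.

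Each claudin crosses the membrane several times and meets claudins of the neighbouring cell in strands that close the gap between epithelial cells. Some claudins seal that gap, and others form pores that let chosen ions or water pass between cells, so each stretch of the nephron owes its leakiness to the set it makes. In the kidney Cldn2 is the pore of the proximal tubule, Cldn10, Cldn16 and Cldn19 serve the thick ascending limb, Cldn3, Cldn4, Cldn7 and Cldn8 mark the distal nephron and collecting duct, Cldn1 lies in the parietal layer of Bowman's capsule, and Cldn6 belongs to fetal epithelium.

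The libraries held between 19524945 and 28544511 counts, and levels are counts per 1000000 counts of a library after scaling (CPM), in which 1 count stood for 0.0346 to 0.0501. Kdm1a was lower in all 4 knockouts, at 90.9 to 95.3 CPM against 109.7 to 119.8 CPM in the controls (log2 fold change -0.27, SE 0.05, adjusted p = 0.0194 by edgeR's quasi-likelihood test with Benjamini-Hochberg adjustment; exact two-sided permutation p = 0.0286). Which exons are deleted is not given in the sources used here, and Kdm1a overlaps Luzp1 on the opposite strand. The Kdm1a call was lost without control replicate 1 or 3 or knockout replicate 1, 2 or 4, with an adjusted p of 0.0529 to 0.0765 and a log2 fold change of -0.28 to -0.24. Of all genes tested, 14.9% were called at an adjusted p under 0.05, 8.27% lower and 6.61% higher in the knockout. Transcripts of Y-linked genes were absent from control replicate 2 and knockout replicates 1 and 4. Adrenal gland transcripts summed to 2703 CPM in knockout replicate 1, 335 CPM in knockout replicate 4, 147 CPM in control replicate 4 and 15.0 to 21.6 CPM in the other libraries. For most claudins control replicate 2 and knockout replicate 3 were the libraries nearest to the other group, and fold changes without both are given beside the results. Since those libraries were picked for where they lie, a larger difference and more calls without them follow from the choice, and are given as a description only.

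Among the 10 claudins, 5 were called lower in the knockout (Cldn2, Cldn10, Cldn16, Cldn19 and Cldn6) and 2 were called higher (Cldn1 and Cldn3). Cldn4, Cldn7 and Cldn8 did not pass the test. The 7 called members stand beside a background of 14.9% of all genes. In 3 members (Cldn2, Cldn6 and Cldn3) the knockout values lay wholly on one side of the control values, a pattern seen in 18.9% of genes tested, 9.58% with all knockouts lower and 9.29% with all higher. The pore of the proximal tubule and the claudins of the thick ascending limb moved most, and the claudins of the distal nephron and collecting duct least. With control replicate 2 and knockout replicate 3 both left out, 8 were called lower and 2 higher, in a fit that called 42.7% of all genes (22.2% lower and 20.5% higher), from which nothing is read about the members because of how those libraries were picked. With knockout replicate 4 left out none was called, in a fit that called 0.819% of all genes (0.23% lower and 0.589% higher). At an unadjusted p under 0.05 that fit held 7 of the 10. The share of all genes at an unadjusted p is not given, so counts at that threshold, here and below, are descriptions only. With all libraries DESeq2 called 7 and limma-voom 10, in fits that called 4506 and 8302 of all genes against 2751 by edgeR.

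**Figure D1:**
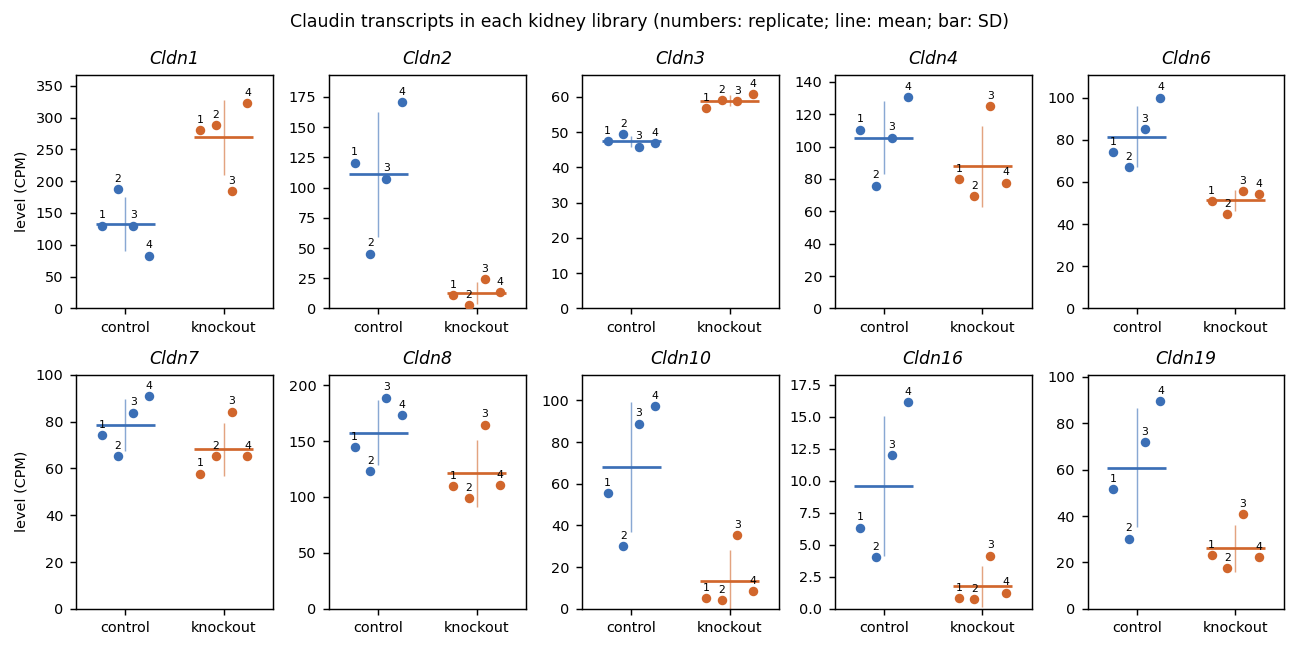
Level of each claudin (CPM, linear axis from 0) in the 4 control and 4 knockout libraries, with the replicate number beside each point, a line at the mean and a bar of 1 SD, cut at 0 for Cldn10. Cldn2, Cldn3 and Cldn6 show groups that do not overlap, while knockout replicate 3 lies near the controls for Cldn10, Cldn16 and Cldn1.

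Promoter sequences were taken from RefSeq (GRCm38.p6) for 9 of the 10 members (all but Cldn8), 3 of them with 2 start sites. The stretches of 120 bases shown here come from the 250 bases before a start site and are printed 5′ to 3′ on the strand of the gene, for 3 claudins that fell, 1 that rose and 1 that was not called, so that the letters can be set beside the values. None of the bases shown lies in an annotated exon. Capitals mark the match to a searched motif.
Cldn2: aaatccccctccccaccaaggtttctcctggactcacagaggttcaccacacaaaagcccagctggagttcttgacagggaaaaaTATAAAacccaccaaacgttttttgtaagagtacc
Cldn10: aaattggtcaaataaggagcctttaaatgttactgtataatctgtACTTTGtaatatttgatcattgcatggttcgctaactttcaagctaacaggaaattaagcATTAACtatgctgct
Cldn16: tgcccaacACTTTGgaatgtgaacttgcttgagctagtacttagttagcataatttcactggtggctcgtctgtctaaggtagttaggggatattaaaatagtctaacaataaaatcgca
Cldn1: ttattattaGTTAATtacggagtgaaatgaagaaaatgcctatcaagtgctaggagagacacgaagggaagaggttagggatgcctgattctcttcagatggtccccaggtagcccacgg
Cldn4: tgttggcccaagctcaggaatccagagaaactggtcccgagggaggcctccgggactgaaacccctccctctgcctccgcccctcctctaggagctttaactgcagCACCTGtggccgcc
The Cldn2 stretch is chrX:139800688-139800807 on the plus strand, and its TATA box begins 35 bases before the start. The Cldn10 stretch is chr14:118787751-118787870 on the plus strand, before the first of its 2 starts. It holds CAAAGT and GTTAAT on the opposite strand, read here as ACTTTG and ATTAAC, 75 and 15 bases before the start. The Cldn16 stretch is chr16:26462885-26463004 on the plus strand, with CAAAGT on the opposite strand 242 bases before the start. The Cldn1 stretch is chr16:26371970-26372089 on the minus strand, with GTTAAT 241 bases before the start. The Cldn4 stretch is chr5:134946935-134947054 on the minus strand, with CAGGTG on the opposite strand, read as CACCTG, 14 bases before the start.

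The search covered 8 motifs on both strands in 250 bases before each of 32817 RefSeq start sites. GTTAAT was found in 6.44% of those windows. CAAAGT, part of the site of HNF4 factors, was found in 12.6%, and its longer form CAAAGTCC, which contains it, in 1.20%. AAGGTCA, the site of estrogen-related receptors, was found in 4.08%, and AACCNGTT, the site of grainyhead-like factors, in 1.78%. CAGGTG, the E-box of Snail and Zeb factors, was found in 17.2%. TATAAA, the TATA box, was found in 12.4%. The share for AGATAA, which binds erythroid-type zinc finger factors, was 9.99%. The Cldn10 window also held AGATAA 224 bases before the start, outside the stretch shown. Cldn6 had CAAAGT and CAGGTG, and the second start of Cldn7 had CAGGTG 2 times. The windows of Cldn3, of Cldn19 at both starts, of Cldn7 at the first and of Cldn10 at the second held none of the 8. Each match is only a run of letters and a description of the window.

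Cldn2 (ENSMUSG00000047230, chromosome X, 139800828 to 139811386, plus strand) forms the pore through which sodium and water pass between cells of the proximal tubule. It stood at 120.6, 45.4, 107.5 and 170.8 CPM in control replicates 1 to 4. In knockout replicates 1 to 4 it stood at 11.3, 2.61, 24.1 and 13.7 CPM. Every knockout was below every control, and the lowest control, replicate 2, was still above the highest knockout, replicate 3. The mean fell from 111 ± 51.6 to 12.9 ± 8.85 CPM (SD, n = 4 each), an 8.49-fold lower level in the fit (log2 fold change -3.09, SE 0.59, edgeR adjusted p = 0.0186). It was the largest change among the 10 members. Without control replicate 1 or 3 or knockout replicate 1 or 4 the adjusted p was between 0.0520 and 0.0679, at log2 fold changes of -3.11 to -3.02. Without both control replicate 2 and knockout replicate 3 the log2 fold change was -3.83.

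The marker genes of the proximal tubule moved with Cldn2. All 13 genes of that list were lower, with a median log2 fold change of -2.99 against 0.0044 over all genes tested, and their summed level was 508 to 2048 CPM in controls and 81.6 to 357 CPM in knockouts. Without knockout replicate 4, 1 of the 13 was called and 13 were lower at an unadjusted p under 0.05. Pck1, the enzyme that commits carbon to glucose synthesis, fell by 3.85 on the log2 scale (SE 0.48, edgeR adjusted p = 0.00724). Gatm, the first enzyme of creatine synthesis, fell by 2.99 (SE 0.45, adjusted p = 0.0110), and Miox, which breaks down inositol, fell by 5.86 (SE 0.98, adjusted p = 0.0134). In whole kidney RNA, fewer cells of a type and less RNA per cell cannot be told apart, and the part of these markers in the Cldn2 result was not tested. The control with the lowest marker sum, replicate 2, was also the control with the least Cldn2, and knockout replicate 3 had the highest sum and the most Cldn2 among the knockouts.

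The claudins of the thick ascending limb act together. Cldn10 forms a sodium pore in that segment, and Cldn16 and Cldn19 join into the pathway by which calcium and magnesium are reclaimed between cells. Mutations of the human counterparts of Cldn16 and Cldn19 cause urinary loss of magnesium and calcium. All 3 were lower in the knockouts, and in all 3 knockout replicate 3 lay within the control range.

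Cldn10 (ENSMUSG00000022132, chromosome 14, 118787908 to 118875489, plus strand) stood at 55.3, 30.05, 88.9 and 97.4 CPM in controls 1 to 4. Its knockout levels were 5.20, 4.17, 35.3 and 8.31 CPM. Knockouts 1, 2 and 4 were far below every control, while knockout replicate 3 was above control replicate 2. The mean fell from 67.9 ± 31.1 to 13.2 ± 14.8 CPM, 5.07-fold lower in the fit (log2 fold change -2.34, SE 0.68, edgeR adjusted p = 0.0493). The gene has alternative first exons, one form known from the thick ascending limb and another from the proximal tubule, and the counts per gene add them up. A ribosomal RNA gene, n-R5s51, lies within it on the opposite strand.

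Cldn16 (ENSMUSG00000038148, chromosome 16, 26463135 to 26482765, plus strand) was the least abundant member, at 6.35, 4.03, 11.99 and 16.1 CPM in the controls. The knockouts gave 0.802, 0.753, 4.15 and 1.26 CPM, resting on 15 to 120 counts. Only knockout replicate 3 reached the controls, 4.15 CPM against 4.03 CPM in control replicate 2. The mean fell from 9.63 ± 5.48 to 1.74 ± 1.62 CPM, 5.42-fold lower in the fit (log2 fold change -2.44, SE 0.63, edgeR adjusted p = 0.0350).

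Cldn19 (ENSMUSG00000066058, chromosome 4, 119255414 to 119262438, plus strand) moved less than its partners. It stood at 51.7, 30.2, 71.8 and 89.7 CPM in the controls. In the knockouts it stood at 23.3, 17.5, 41.0 and 22.3 CPM, and replicate 3 again exceeded control replicate 2. The mean fell from 60.9 ± 25.7 to 26.0 ± 10.3 CPM, 2.34-fold lower in the fit (log2 fold change -1.22, SE 0.35, edgeR adjusted p = 0.0473). An antisense gene, Gm12927, overlaps Cldn19, and reads of the pair cannot be separated unless strand was used in counting. Cldn19 lies 17.3 Mb from Kdm1a on the same chromosome.

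All 3 thick ascending limb claudins lost their call in 6 of the 8 fits with 1 library left out. Leaving out control replicate 1, 3 or 4 or knockout replicate 1, 2 or 4 gave an adjusted p of 0.0987 to 0.136 for Cldn10, 0.0715 to 0.105 for Cldn16 and 0.0932 to 0.131 for Cldn19. The log2 fold changes in those fits were -2.41 to -2.05 for Cldn10, -2.58 to -2.08 for Cldn16 and -1.28 to -0.98 for Cldn19, and the fits called 153 to 695 of all genes against 2751 with all libraries. With an adrenal covariate these were 0.0884, 0.0696 and 0.0904, in the libraries with Y-linked transcripts only 0.116, 0.0785 and 0.0697, and with a Y-linked covariate Cldn19 alone lost its call, at 0.0760. Leaving out knockout replicate 3 instead deepened the log2 fold change to -3.49 for Cldn10, -3.31 for Cldn16 and -1.51 for Cldn19. Without both that library and control replicate 2 the values were -3.76, -3.59 and -1.76.

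The balance between these claudins also shifted. Levels of different genes were compared per length, as CPM per kilobase of exon (RPKM). The ratio of Cldn19 to Cldn16 was 2.24, 2.06, 1.65 and 1.53 in the controls and 7.98, 6.40, 2.71 and 4.87 in the knockouts, so every knockout was higher. The ratio of Cldn10 to Cldn19 was 1.64 to 2.04 in controls and 0.367 to 1.42 in knockouts, so every knockout was lower. By contrast, the ratio of Cldn10 to Cldn16 overlapped, at 2.73 to 3.95 in controls and 2.51 to 3.85 in knockouts. Cldn10 and Cldn16 kept close to each other from library to library, and Cldn19 was lowered less than either. These ratios are descriptions with no test.

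Of 10 marker genes of the thick ascending limb, 7 were called lower, against 8.27% of all genes tested. All 10 had a log2 fold change below 0, with a median of -2.70. Their summed level was 288 to 1360 CPM in controls and 23.2 to 355 CPM in knockouts, and the highest knockout was again replicate 3. Without knockout replicate 4 edgeR called 0 of them, with 9 lower at an unadjusted p under 0.05. Umod, the gene of the main protein of normal urine, fell by 5.52 on the log2 scale (SE 1.16, edgeR adjusted p = 0.0219). Tmem174, entered in this list but better known from the proximal tubule, fell by 2.80 (SE 0.60, adjusted p = 0.0230). Without it, a choice made after its values were seen, 6 of 9 markers were called lower, with a median log2 fold change of -2.60. The part of these markers in the results for Cldn10, Cldn16 and Cldn19 was not tested.

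Cldn4, Cldn7 and Cldn8 line the distal nephron and collecting duct, and none of them passed the test. Cldn8 holds Cldn4 at the junction, and together they form a path for chloride beside the cells that reabsorb sodium. Cldn7 is spread along the lateral membrane of the same cells.

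Cldn4 (ENSMUSG00000047501, chromosome 5, 134945119 to 134946934, minus strand) stood at 110.4, 75.9, 105.6 and 130.4 CPM in controls and 80.0, 69.3, 124.9 and 77.7 CPM in knockouts. Knockout replicate 3 was above 3 of the 4 controls (log2 fold change -0.26, SE 0.21, edgeR adjusted p = 0.388). Cldn7 (ENSMUSG00000018569, chromosome 11, 69964779 to 69967885, plus strand) stood at 74.1, 65.3, 83.9 and 90.9 CPM in controls and 57.8, 65.2, 84.4 and 65.4 CPM in knockouts. The Cldn7 groups overlapped, through knockout replicates 3 and 4 (log2 fold change -0.20, SE 0.14, adjusted p = 0.304). Cldn8 (ENSMUSG00000050520, chromosome 16, 88560828 to 88563183, minus strand) stood at 144.3, 123.3, 188.9 and 173.2 CPM in controls and 109.8, 99.0, 164.7 and 110.7 CPM in knockouts. Knockouts 1, 2 and 4 were below every Cldn8 control, and replicate 3 was above controls 1 and 2 (log2 fold change -0.38, SE 0.18, adjusted p = 0.167). Of the 8 fits with 1 library left out, Cldn8 was called only without knockout replicate 3 (log2 fold change -0.54, edgeR adjusted p = 0.0361). That library was picked above for lying near the controls, so nothing is read from the call. The largest adjusted p of those fits was 0.364, without control replicate 3. Without both knockout replicate 3 and control replicate 2, the log2 fold changes were -0.61 for Cldn4, -0.41 for Cldn7 and -0.67 for Cldn8.

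Cldn3, a sealing claudin of the distal nephron and collecting duct, was higher by a small and even amount. Cldn3 (ENSMUSG00000070473, chromosome 5, 134986214 to 134987472, plus strand) stood at 47.4, 49.3, 45.9 and 46.8 CPM in controls. Knockouts gave 56.8, 59.2, 58.8 and 60.7 CPM. Every knockout exceeded every control, and the spread within each group was the narrowest of the 10 members. The mean rose from 47.4 ± 1.44 to 58.9 ± 1.60 CPM, 1.24-fold higher in the fit (log2 fold change 0.31, SE 0.05, edgeR adjusted p = 0.0144). The call was lost without control replicate 3 (adjusted p = 0.0555) and without knockout replicate 4 (0.0566), at log2 fold changes of 0.30 and 0.32. Cldn3 and Cldn4 lie 39.3 kb apart, and the difference between their responses was not tested. An antisense gene, Wbscr25, overlaps Cldn3.

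Markers of the distal convoluted tubule and principal cell gave mixed values, and those of the intercalated cell all had log2 fold changes below 0. In the distal convoluted tubule list 3 of 7 tested genes were called lower and 4 had a log2 fold change below 0, with a median of -0.56. The sums were 701 to 1067 CPM in controls and 597 to 755 CPM in knockouts. Calb1, Trpm6 and Slc8a1, named after their values were seen, were not called, at log2 fold changes of 0.25, 0.22 and 0.04. Calb1 alone stood at 405 to 523 CPM in controls and 462 to 669 CPM in knockouts. The calcium-binding protein gene S100g fell by 2.44 on the log2 scale (SE 0.35, edgeR adjusted p = 0.0101), the calcium channel gene Trpv5 by 2.66 (SE 0.49, adjusted p = 0.0172) and the thiazide-sensitive sodium chloride cotransporter gene Slc12a3 by 2.80 (SE 0.54, adjusted p = 0.0190). Among 11 tested genes of the principal cell, 1 was called lower and 2 higher. The log2 fold change was below 0 in 9 of the 11, with a median of -0.55, and limma-voom called 8 lower and 2 higher. The sums overlapped at 686 to 1545 CPM in controls and 375 to 1270 CPM in knockouts. Scnn1a, a sodium channel subunit, fell by 2.21 (SE 0.59, adjusted p = 0.0382). Gata3, a transcription factor of the duct, rose by 0.56 (SE 0.14, adjusted p = 0.0364), and Hsd11b2, which inactivates glucocorticoids in these cells, rose by 0.59 (SE 0.17, adjusted p = 0.0459). Of 9 intercalated cell genes 1 was called lower, Rhbg, an ammonia transporter, which fell by 2.53 (SE 0.67, adjusted p = 0.0384). The median log2 fold change of the 9 was -1.64, and 7 were lower at an unadjusted p under 0.05. DESeq2 called 4 of them lower and limma-voom 8, in fits that called 4506 and 8302 of all genes. Without knockout replicate 4 edgeR called 0 of them. Pvalb of the distal convoluted tubule and the vasopressin receptor gene Avpr2 stayed under 1 CPM in every library. Urothelium markers, which share Cldn4 and Cldn7 with the duct, summed to 107 to 301 CPM in controls and 128 to 228 CPM in knockouts, with 0 of 9 called by edgeR or 1 at an unadjusted p under 0.05, 1 by DESeq2 and 5 by limma-voom. The part of these cell types in the claudin results was not tested.

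Cldn1, a sealing claudin known from skin and from the flat cells that line Bowman's capsule, was higher in the knockouts. Cldn1 (ENSMUSG00000022512, chromosome 16, 26356642 to 26371841, minus strand) stood at 130.1, 187.1, 130.2 and 83.0 CPM in controls. Knockouts stood at 280.1, 288.2, 184.7 and 322.8 CPM. Knockouts 1, 2 and 4 exceeded every control, while replicate 3 fell just short of control replicate 2. The mean rose from 132.6 ± 42.6 to 269 ± 59.1 CPM, 2.03-fold higher in the fit (log2 fold change 1.02, SE 0.24, edgeR adjusted p = 0.0289). The call was lost without control replicate 1, 3 or 4 or knockout replicate 1, 2 or 4, at an adjusted p of 0.0573 to 0.0887 and log2 fold changes of 0.85 to 1.02, and with the adrenal covariate, at 0.0733. Without both control replicate 2 and knockout replicate 3 the log2 fold change was 1.37.

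Cldn1 and Cldn16 are neighbours on chromosome 16, 91.3 kb apart, and went in opposite directions. The 8 marker genes of the parietal epithelium, a list that shares a gene with the podocyte list, gave sums that overlapped between the groups. Their sums were 1485 to 1597 CPM in controls and 1474 to 1644 CPM in knockouts, with a median log2 fold change of 0.08. Only Akap12, a scaffold for protein kinase A, was called among them (log2 fold change 0.36, SE 0.09, edgeR adjusted p = 0.0344). Fibroblast markers summed to 2826 to 3911 CPM in controls and 3229 to 5445 CPM in knockouts, with a median log2 fold change of 0.54. Of the 8, 2 were called higher and 5 were higher at an unadjusted p under 0.05. The part of the parietal epithelium and of the fibroblast markers in the Cldn1 result was not tested.

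Cldn6, a claudin of embryonic and newborn epithelium, was lower in the knockouts. Cldn6 (ENSMUSG00000023906, chromosome 17, 23679365 to 23682446, plus strand) stood at 74.0, 67.0, 85.1 and 99.99 CPM in controls. Knockouts gave 50.8, 44.7, 55.6 and 54.2 CPM. Each knockout was below each control, with less spread among the knockouts. The mean fell from 81.5 ± 14.4 to 51.3 ± 4.87 CPM, 1.59-fold lower in the fit (log2 fold change -0.67, SE 0.13, edgeR adjusted p = 0.0184). The adjusted p was 0.0597 without control replicate 3, 0.0533 without knockout replicate 1, 0.0519 without knockout replicate 2 and 0.0609 without knockout replicate 4, at log2 fold changes of -0.65, -0.66, -0.61 and -0.68. Its neighbour Cldn9, a close relative, lies on the opposite strand and ends 138 bases from the end of Cldn6. Cldn9 was not called (log2 fold change -0.05, edgeR adjusted p = 0.835). How reads that match both genes were handled is not given in the sources used here.

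Genes of the nephron progenitor were detected in every library, Six2 at 96.9 to 219 CPM. Of 12 genes on that list 4 were called lower and 7 had a log2 fold change below 0. The sums of the list were 969 to 1095 CPM in controls and 895 to 969 CPM in knockouts. Without knockout replicate 4 edgeR called 0 of them, with 5 lower at an unadjusted p under 0.05. With all libraries DESeq2 called 5 lower and limma-voom 6 lower and 3 higher, in fits that called 4506 and 8302 of all genes. Among them Cited1 fell by 1.64 on the log2 scale (SE 0.35, edgeR adjusted p = 0.0225), Meox1 by 1.45 (SE 0.24, adjusted p = 0.0132) and Lhx1, needed for the first nephron tubules, by 0.73 (SE 0.13, adjusted p = 0.0173). Six2, which keeps progenitors from differentiating and is named after its values were seen, was not called (log2 fold change 0.47, SE 0.20, adjusted p = 0.127). The part of these markers in the Cldn6 result was not tested.

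**Figure D2:**
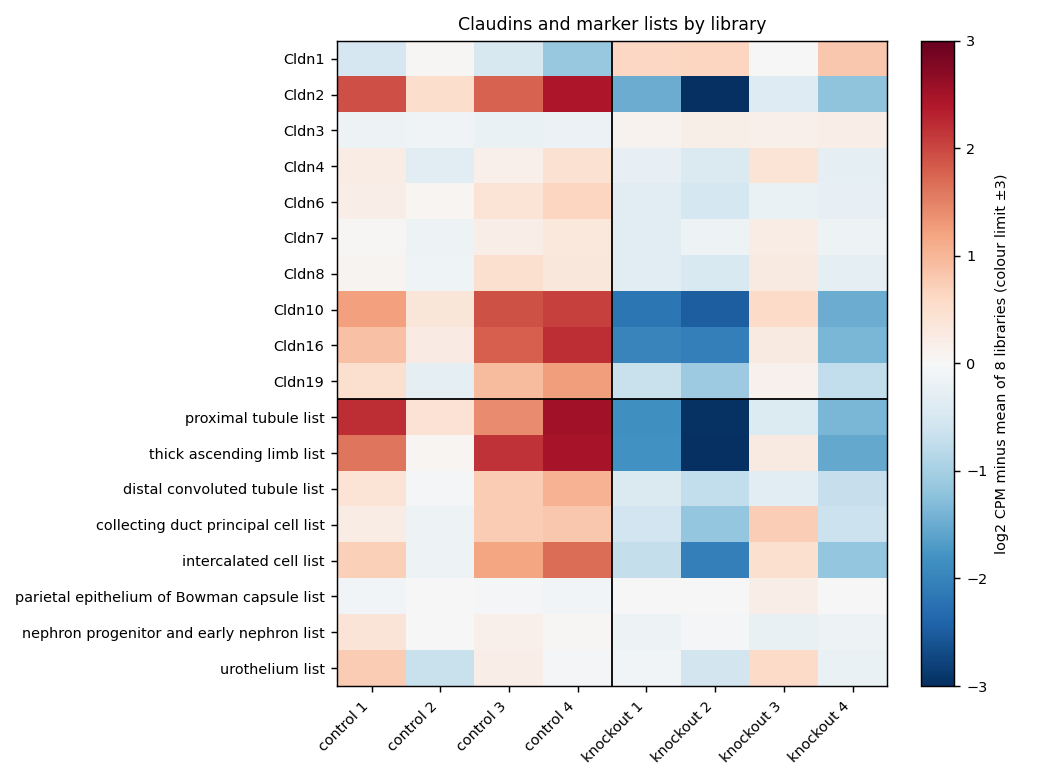
Level of each claudin and mean level of each marker list in every library, as log2 CPM minus its mean over the 8 libraries (colour, limited at 3 either way). Cldn2, Cldn10 and Cldn16 darken and pale with the proximal tubule and thick ascending limb lists, and in those rows control replicate 2 and knockout replicate 3 are the palest columns of their groups.

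The order of the claudins by mean level changed between the groups. In the controls Cldn8 was the most abundant at a mean of 66.8 RPKM, followed by Cldn4 at 58.1, Cldn6 at 54.1, Cldn1 at 40.8, Cldn7 at 40.3, Cldn3 at 37.6, Cldn2 at 33.4, Cldn10 at 26.2, Cldn19 at 14.3 and Cldn16 at 8.21 RPKM. No 2 neighbours in that order were apart, since the ranges over the 4 controls overlapped for each pair. In the knockouts Cldn1 led at 82.8 RPKM, followed by Cldn8 at 51.4, Cldn4 at 48.5, Cldn3 at 46.8, Cldn7 at 35.0 and Cldn6 at 34.1 RPKM. Cldn19 at 6.10, Cldn10 at 5.11, Cldn2 at 3.89 and Cldn16 at 1.48 RPKM followed far behind. The ranges were apart between Cldn3 and Cldn7 and between Cldn6 and Cldn19, and overlapped for the other neighbours. The 4 claudins of the proximal tubule and thick ascending limb thus formed a low group of their own in the knockouts and not in the controls.

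As a share of the summed RPKM of the 10 claudins, Cldn1 took 5.75% to 18.9% in controls and 16.0% to 31.0% in knockouts. The share of Cldn2 was 4.48% to 11.5% in controls and 0.274% to 2.03% in knockouts, and that of Cldn10 was 3.80% to 8.44% and 0.562% to 3.82%. The ranges of Cldn2 were apart, and those of Cldn1 and Cldn10 met through control replicate 2 and knockout replicate 3. Cldn3 took 8.36% to 12.9% in controls and 13.1% to 16.4% in knockouts. The shares of the other collecting duct claudins overlapped between the groups, Cldn8 at 16.5% to 19.6% against 14.7% to 19.6%, Cldn4 at 13.7% to 16.8% against 13.3% to 19.3% and Cldn7 at 10.5% to 10.997% against 9.99% to 12.1%. The summed level of the 10 was 305 to 445 RPKM in controls and 286 to 357 RPKM in knockouts, so the totals overlapped. The ratio of Cldn1 to Cldn2, per length, was 0.498 to 4.22 in controls and 7.84 to 113 in knockouts. Shares of one total move against each other by construction, and no test was run on them.

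**Figure D3:**
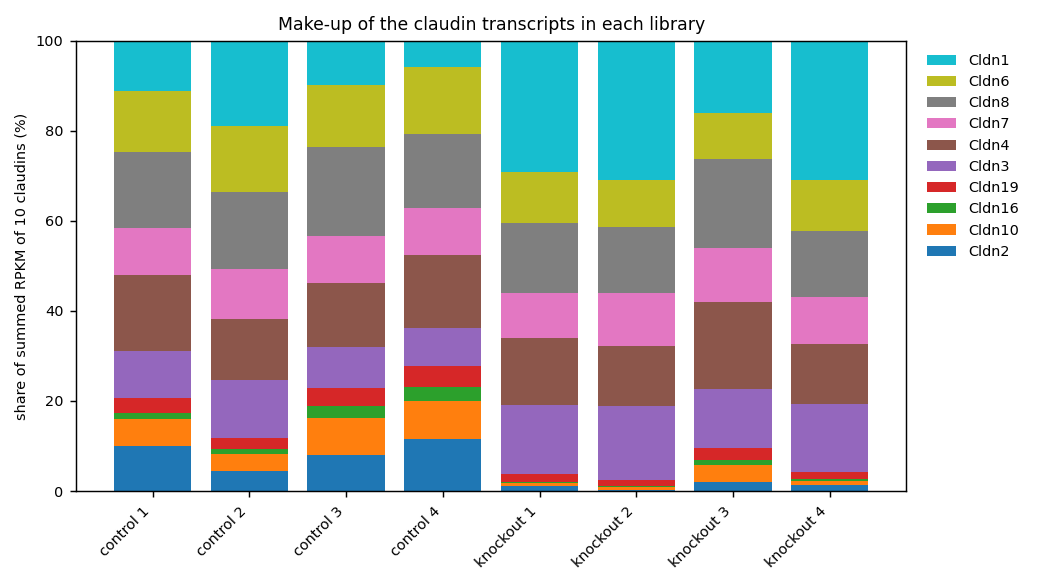
Share of each claudin in the summed RPKM of the 10 members (%, stacked to 100) for each of the 4 control and 4 knockout libraries. Cldn1 takes 5.75% to 18.9% of a control and 16.0% to 31.0% of a knockout, while Cldn2, Cldn10, Cldn16 and Cldn19 shrink to thin bands at the base.

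The libraries kept a similar order from claudin to claudin. Control replicate 2 was the lowest control for 8 of the 10 members and the highest for Cldn1 and Cldn3. Control replicate 4 was the highest control for 7. Knockout replicate 3 was the highest knockout for 8 members and the lowest for Cldn1, and knockout replicate 2 was the lowest for 7. Summed proximal tubule, thick ascending limb, principal cell and intercalated cell markers had the same lowest control, replicate 2, and the same highest knockout, replicate 3, and so did the endothelial markers and the scaffold and membrane partners. In the distal convoluted tubule list the lowest control was replicate 1 and the highest knockout replicate 2, and in the nephron progenitor list they were replicates 4 and 2. The part of these cell types in that order was not tested.

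Likeness between genes was measured as the root mean square difference of their log2 CPM, centred over the 8 libraries. Cldn4 and Cldn8 were the closest pair of members at 0.151, then Cldn7 and Cldn8 at 0.154, Cldn4 and Cldn7 at 0.170, Cldn6 and Cldn8 at 0.220 and Cldn10 and Cldn16 at 0.247. Cldn3 lay farther from the duct claudins, at 0.435 from Cldn4 and 0.448 from Cldn8, and Cldn1 was farthest from Cldn2, at 2.51. The measure is small between genes that vary little: about their own means Cldn7, Cldn8 and Cldn4 had root mean squares of 0.217, 0.324 and 0.333, against 1.69 for Cldn10 and 1.55 for Cldn16. Of 14180 other genes compared, the nearest to Cldn2 was Tmem174 (0.152). Nearest to Cldn10 were Ak7 (0.195) and Mymx (0.230), nearest to Cldn16 were Mymx (0.280) and Tmem213 (0.339), and nearest to Cldn19 were the protease gene Prss8 (0.113) and the prostaglandin E synthase gene Ptges (0.119). For Cldn1 they were Aspn, a matrix proteoglycan (0.104), and the cytokine gene Il33 (0.104). Cldn3 was nearest to Haus4 (0.0259) and Zfp512b (0.0415), and Cldn6 to Icam2 (0.0518) and Syne4 (0.0556). Cldn4 was nearest to Arhgap4 (0.0396) and C77080 (0.0565), Cldn7 to Anxa4 (0.0515) and Smad6 (0.0584), and Cldn8 to Tbx2 (0.0418) and Agrn (0.0585). Genes that differ between the groups resemble each other by that alone, and the values describe these 8 libraries only.

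Of the 25 other annotated claudins, 7 were tested and 17 stayed under 1 CPM in every library. Of those tested, 1 was called lower and 5 had a log2 fold change below 0, with a median of -0.15. Cldn14, at no more than 2.62 CPM, was not tested. Cldn12, made in many epithelia, stood at 48.2, 39.9, 47.5 and 55.5 CPM in controls and 36.6, 34.6, 35.4 and 35.0 CPM in knockouts. Every knockout was below every control (log2 fold change -0.43, SE 0.09, edgeR adjusted p = 0.0239), and the call was kept without control replicate 2 or without knockout replicate 3 and lost without any of the other libraries, at 0.0542 to 0.0801. Cldn5, the claudin of endothelium, stood at 83.8 ± 13.1 CPM in controls and 62.4 ± 12.2 CPM in knockouts and was not called (log2 fold change -0.42 with an SE of 0.15, adjusted p = 0.0903). Of the endothelial markers, 1 of 8 was called lower, and 5 were lower at an unadjusted p under 0.05. All 8 had a log2 fold change below 0, with a median of -0.40, and their part in the Cldn5 result was not tested. Cldn11 (-0.15, adjusted p = 0.816), Cldn15 (0.06, 0.867) and Cldn34c1 (0.41, 0.211) were not called either.

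Claudins are anchored inside the cell by scaffold proteins, and 29 genes of scaffold and membrane partners were tested. Of these, 7 were called lower and 3 higher, and 17 had a log2 fold change below 0, with a median of -0.05. The summed level of the 29 was 1912 to 2083 CPM in controls and 1941 to 2038 CPM in knockouts. Tjp1, whose protein ZO-1 binds claudin tails directly, rose by 0.31 with an SE of 0.05 on the log2 scale (edgeR adjusted p = 0.0132). Magi1, another scaffold, rose by 0.33 (SE 0.07, adjusted p = 0.0218). Patj, of the Crumbs polarity complex, fell by 0.51 (SE 0.11, adjusted p = 0.0205). The other genes called lower, named after their values were seen, were Prkcz (-1.12), Ildr1 (-0.94), Crb3 (-0.91), Pard6b (-0.72), Marveld2 (-0.60) and Mpp5 (-0.25). The abundant partners F11r, which encodes JAM-A (log2 fold change 0.03, adjusted p = 0.745), and Cgnl1, which encodes paracingulin (-0.40, 0.119), were not called. EdgeR called 0 partners lower without control replicate 3 or 4 or knockout replicate 1, 2 or 4 (8 at an unadjusted p under 0.05 without knockout replicate 4), 1 without control replicate 1 and 11 without control replicate 2.

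**Figure D4:**
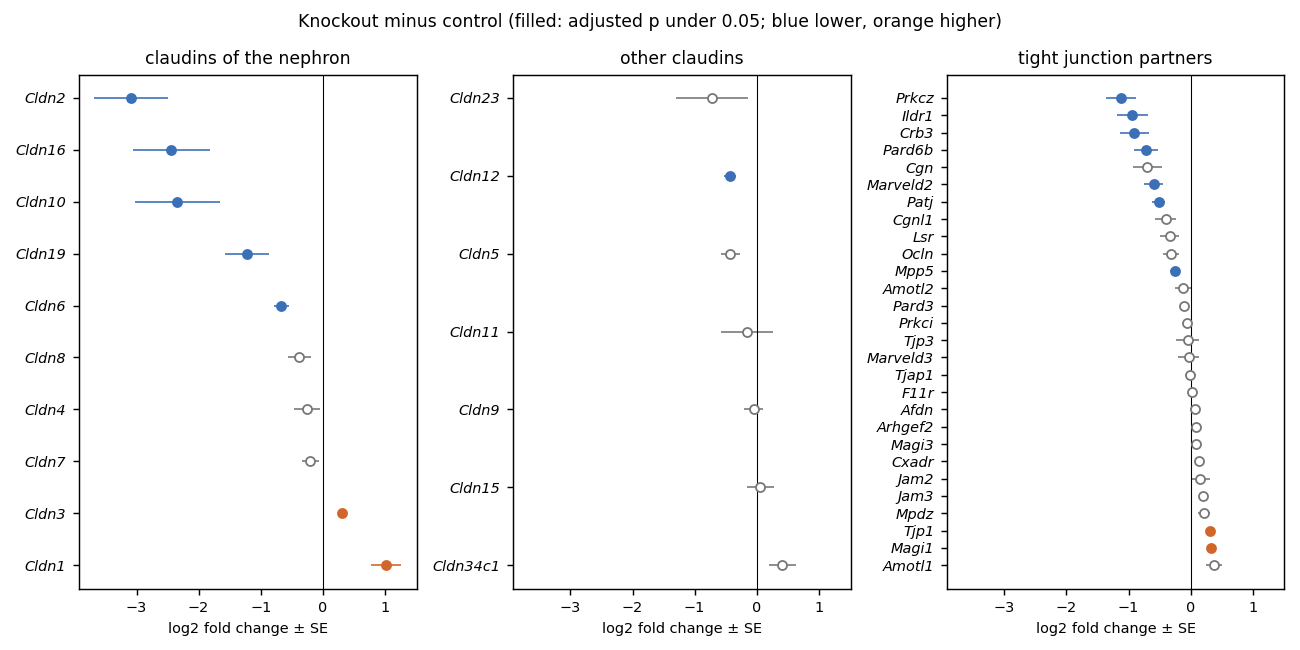
Log2 fold change, knockout minus control, with 1 SE, for the 10 claudins, the 7 other claudins tested and 28 of the 29 tight junction partners, filled where the adjusted p is under 0.05. The claudins run from -3.09 for Cldn2 to 1.02 for Cldn1, and Prkcz is the lowest partner shown, at -1.12.

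Genes known to act on claudins or on the segments that make them were taken as a further list, of which 28 were tested. Of those, 8 were called lower and 1 higher, and 23 had a log2 fold change below 0, with a median of -0.68. Without knockout replicate 4 edgeR called 0 of them, with 14 lower and 1 higher at an unadjusted p under 0.05. With all libraries DESeq2 called 16 lower and limma-voom 18, with 1 higher in each, in fits that called 4506 and 8302 of all genes. Esrrb, an orphan nuclear receptor, fell by 2.59 on the log2 scale (SE 0.51, edgeR adjusted p = 0.0193). Prss8, whose product is the membrane protease prostasin, fell by 1.34 (SE 0.31, adjusted p = 0.0264). Ovol2, a repressor that keeps epithelia epithelial, rose by 0.99 (SE 0.21, adjusted p = 0.0226) from 2.05 ± 0.444 to 4.06 ± 0.675 CPM. Sgk1, a kinase of the aldosterone response (log2 fold change -1.06, adjusted p = 0.126), and Cul3, the ubiquitin ligase scaffold that works with Klhl3 on Cldn8 (0.02, 0.893), were not called. Klhl3 itself, named after its values were seen, was called lower (log2 fold change -0.99, SE 0.26, edgeR adjusted p = 0.0371). Only transcripts were measured here, so the level of the Cldn8 protein is not known.

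**Figure D5:**
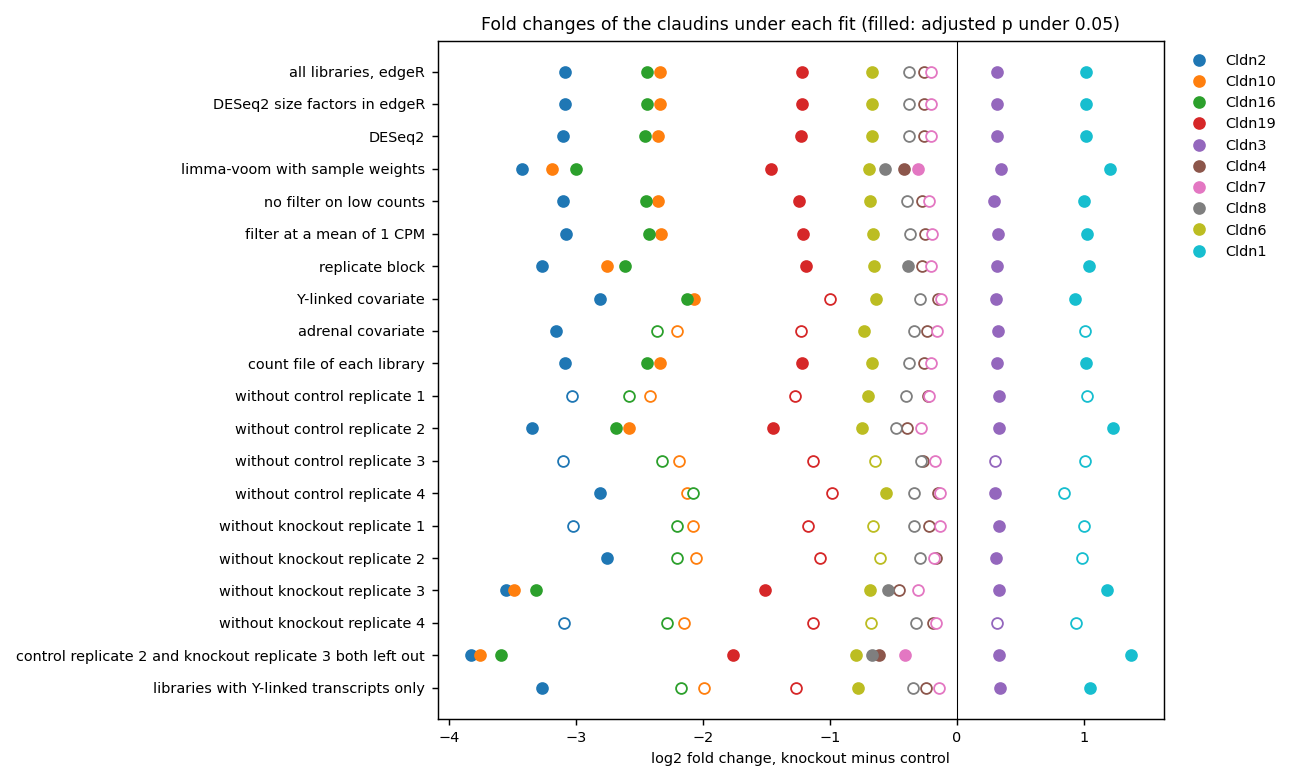
Log2 fold change of each of the 10 claudins, knockout minus control, in the fit of all libraries (top) and in 19 alternative fits, filled where the adjusted p is under 0.05. No claudin changes sign in any fit, and all 10 points are open without knockout replicate 4. The fit on the count file of each library repeats the top row, since the counts are the same.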

How the data were processed

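Messenger RNA of 8 kidneys was sequenced from oligo-dT libraries, 4 per genotype, per the labels' protocols. The authors deposited whole-number counts per gene without normalization, per the file headers. The submitters' processing notes name Trimmomatic 0.36, STAR 2.5.2b, featureCounts, Subread 1.5.2, DESeq2 and build GRCm38. Strand setting and handling of reads that match several genes are not given in the sources used here. The series table and the tables per library differed in 0 cells, and 259 of 49315 gene IDs had no GENCODE M21 symbol. Coordinates are those of the deposited tables, counted from 1. TMM scaling (trimmed mean of M values) was applied, low genes were filtered with filterByExpr and tested on all genes with edgeR 4.0.16 (quasi-likelihood, genotype only) in R 4.3.3. Benjamini-Hochberg adjustment ran over all genes tested, and a call is an adjusted p under 0.05. CPM uses the scaled library sizes, RPKM divides CPM by exonic length in kilobases, and centred log2 CPM used a prior count of 2. The procedure was tested on simulated data. Errors of mean levels are SDs over libraries. The SE of an edgeR log2 fold change is its absolute value divided by the square root of the quasi-likelihood F statistic. At most, 1 count is worth 0.0501 CPM.

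Alternatives were DESeq2 1.42.0, its size factors in edgeR, limma 3.58.1 (voom with sample weights), other filters, a replicate block, covariates for Y-linked and adrenal transcripts, the tables per library, each library left out in turn, control replicate 2 and knockout replicate 3 left out together, and libraries with Y-linked transcripts only. The claudins, gene lists and alternatives were chosen with earlier results of these data known. Genes are named by a rule. It takes all 10 claudins, Kdm1a, other claudins called or at a mean of 5 CPM or more, the 4 smallest adjusted p and the 2 most abundant uncalled genes of the partner and regulator lists, and up to 3 called markers of each segment that makes a member. It adds the 2 nearest genes of each member at a mean of 1 CPM or more, and markers at or near 0. Names outside it are stated as such, and some genes that the rule picks are left out here. Other marker lists covered podocytes (2 of 9 called lower), thin limb (2 called lower and 1 higher of 5) and leukocytes (1 of 7 called higher). The germ cell list had 0 of 2 called by edgeR, DESeq2 or limma-voom and 0 at an unadjusted p under 0.05. Its sum was 41.7 CPM in control replicate 2 and at most 3.74 CPM elsewhere. For oviduct 0 of 6 were called, 1 was higher by DESeq2 and at an unadjusted p, and 4 by limma-voom. In the hepatocyte list 1 of 5 was called lower and 1 higher. Of the adrenal gland genes 0 of 9 were called, 5 were higher at an unadjusted p, 3 by DESeq2 and 0 by limma-voom. Cd3e, Stra8, Zp3, Amh, Foxl2, Sprr2d and Cdx2 stayed under 1 CPM in every library.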

Additional observations from a re-analysis of the deposited data

Results flagged for a closer look

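In 20 groups of 4 libraries, 10 claudins in each genotype, the highest or lowest library was checked for a gap from its neighbour that is large against the whole range of the group. Chance gives such a gap in about 1 in 20 groups. It was found in 2. Cldn10 stood at 35.3 CPM in knockout replicate 3, with a gap of 0.867 of the range, and Cldn16 stood at 4.15 CPM in the same library, with a gap of 0.851, both above Dixon's critical value at the 95% level for 4 libraries. In both genes that library lay among the controls.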

How the results depend on the processing

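No claudin changed direction in 19 alternative fits. The fit on the tables per library is among them, and it repeats the main fit because the counts are the same. Claudins called lower numbered 5 with all libraries, 8 with limma-voom, 2 with the adrenal covariate, 8 without both control replicate 2 and knockout replicate 3, 2 in the libraries with Y-linked transcripts only, and 0 to 6 with 1 library left out. Claudins called higher numbered 2, then 1 with the adrenal covariate and 0 to 2 with 1 library left out. All genes called numbered 2751, then 4506 with DESeq2, 8302 with limma-voom, 1215 with the adrenal covariate, 7903 without both named libraries and 153 to 7084 with 1 left out. Other claudins called lower numbered 1, then 2 with DESeq2 or limma-voom, 4 without both libraries and 0 to 2 with 1 left out. Partners called lower numbered 7, then 11 with limma-voom, 4 with the Y-linked covariate, 2 with the adrenal covariate, 11 without both libraries and 0 to 11 with 1 left out. Kdm1a was not called in the libraries with Y-linked transcripts only (log2 fold change -0.28), and ran from -0.29 to -0.24 with 1 library left out. The 2 libraries left out together were picked as those nearest to the other group, which raises the calls by construction. Fits with a library left out have fewer samples, and for the other changes the cause was not tested.

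The deviations of same-numbered libraries gave mixed correlations of -0.11, 0.33, 0.23 and -0.06 for numbers 1 to 4. Those of differently numbered libraries ran from -0.47 to 0.40. The labels' numbers were not taken as pairs, and these values do not settle whether they are. With the replicate block, 6 claudins were called lower and 2 higher (Cldn8 added, adjusted p = 0.0259), 3229 genes in all, 8 partners lower, Kdm1a at -0.27 and 2 other claudins lower.

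Depth limits Cldn16 most, at 15 to 120 counts in the knockouts, and the other members had at least 52 counts in every library.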
